A study of Rattus norvegicus with 32 samples.

Results

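The genes that contribute most reads to the renal cortex of Sprague Dawley (SD) control rats were compared with the same genes in diabetic rats, untreated or treated by surgery with or without drugs. Counts were expressed as CPM, which is 1000000 times a gene's count over the total of its library, and genes were ranked by their mean CPM over the 6 SD rats. Of the 100 highest, 4 were left out by the selection rule and the other 96 of 26404 genes, here called members, are described. The members were chosen by their levels in SD, so differences of any group from SD in these genes are descriptions given with no test. Mean CPM in SD was 888.7 at rank 99 and 887.0 at rank 100, just inside the limit, and 884.3 at rank 101 and 877.8 at rank 102, just outside it, so that the limit does not mark a step in abundance.

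Renal cortex was sequenced from rats of 4 groups, all aged 37 weeks according to the sample labels. SD rats are the non-diabetic controls. Rats of the Zucker Diabetic Sprague Dawley (ZDSD) strain, which becomes obese and diabetic, had sham surgery by laparotomy (SHAM), Roux-en-Y gastric bypass (RYGB), or the bypass followed by fenofibrate, metformin, ramipril and rosuvastatin given in chow (RYGB-FMRR, labelled as surgery with Best Medical Therapy). According to the study's methods all rats were male and all ZDSD groups received insulin in the week before surgery. Surgery was staggered by group in these methods, with SHAM operated at the youngest age, RYGB-FMRR next and RYGB last. The methods also give the groups the same follow-up before tissue collection, which is at odds with the single age in the labels. Age at collection and time since surgery may therefore differ between groups. Differences among the ZDSD groups cannot be told apart from these or from the age and week of surgery. The 6 SD rats differ from every ZDSD group in strain, in surgery and in disease, and these cannot be told apart. Each library is a separate rat, known by the number in its label. Libraries of 6 SD, 7 SHAM, 9 RYGB and 7 RYGB-FMRR rats entered the comparisons, with total counts between 14502127 and 27597901. A further 2 SHAM libraries, with totals of 121511 and 101534, were left out because of their depth. SHAM rat 333 had the smallest total among those kept and stood apart in many members, as described below, so the main counts that rest on SHAM are also given without it.

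The cortex of the kidney is built mainly of proximal tubules, whose epithelium reabsorbs most filtered solutes and runs on the oxidation of fatty acids. Its abundant transcripts include those for transporters and for enzymes of fuel and xenobiotic metabolism. When the summed level of the most abundant transcripts moves, the share left for every other gene moves with it. Fenofibrate activates the nuclear receptor PPARα, which induces genes of fatty acid oxidation in liver and proximal tubule. In bulk tissue, fewer cells of a type and less RNA per cell cannot be told apart. The counts were deposited by Ensembl gene identifier, and the files do not pair these with gene names. The members are therefore identified by their rank in SD and their position in the rat genome build rn5, their functions are not given, and the labelled tissue could not be checked against its marker genes.

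The highest member in SD was ENSRNOG00000030154, on the minus strand at chr5:137989329-138000280, which is annotated with 13 exons and 2017 bases of exon. Its level in SD ranged from 8712 to 13418 CPM (median 10502), and its mean of 10834 CPM was 12.2 times that of the member of rank 100. The member of rank 2 (chr8:84627768-84666185) had a mean of 8384 ± 1779 CPM (standard deviation, n = 6), that of rank 3 (chr3:62271279-62359283) 8296 ± 571 CPM, that of rank 4 (chr2:220254690-220278103) 7521 ± 652 CPM and that of rank 5 (chr5:69297012-69313010) 6864 ± 626 CPM. These 5 members were the only ones with a mean over 5000 CPM in SD, and the ranges of ranks 1 to 3 over the 6 rats overlapped. The median member had a mean of 1358 CPM. Levels then declined without a break to rank 100, as the plot of group means by rank shows.

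**Figure D1:**
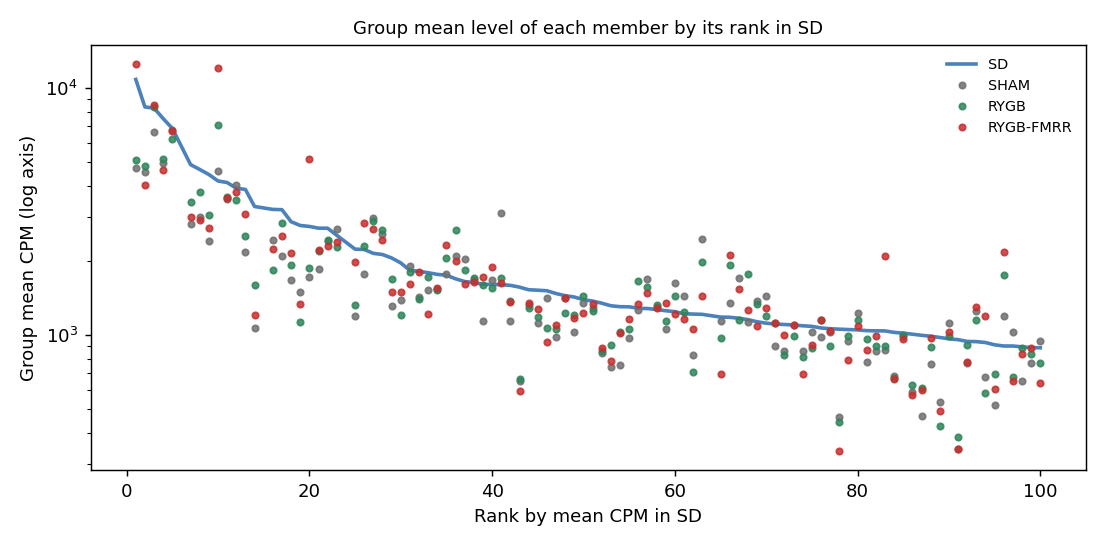
Mean CPM of each of the 96 members in each group (vertical log axis) against the member's rank by mean CPM in SD (horizontal axis). The SD line falls from 10834 to 887.0 by construction, while the points of the ZDSD groups scatter around it, with ranks 10, 20 and 83 in RYGB-FMRR far above and ranks 43, 78 and 91 far below in every ZDSD group.

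A CPM value counts reads and so favours long genes. Per kilobase of exon, 57 of the 96 members also stood among the 100 highest genes in SD. The member of rank 9 (chr4:230077260-230080304), with 705 bases of exon, became the highest of all genes at 6333 CPM per kilobase, followed by the member of rank 1 at 5372. The member of rank 3, with 12411 bases of exon in 61 exons, moved to place 76. The member of rank 50, with 27611 bases in 106 exons, moved furthest, to place 2071. The order of ranks used here is thus an order of reads, while a fold change compares a gene with itself, over the same length.

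The members shared features that the ranking did not use directly. None of the 96 had a single exon, against 5.79% of the 14776 genes tested and 18.2% of all 26404 genes. Their median exonic length was 2218.5 bases with a range of 666 to 27611, against 1998.5 bases among genes tested. The median number of exons was 11.5, against 8.0. In the next 400 genes, ranks 101 to 500, a comparison chosen after the data had been seen, these medians were 2231 bases and 11 exons, and 1.5% had a single exon. Chromosome 3 held the most members, 12 of 96 or 12.5%, against 7.29% of genes tested. The only member overlapped by another gene on the same strand was that of rank 81. In the annotation, 4 pairs of members lay within 300000 bases of each other. The closest were ranks 3 and 71 on chromosome 3, with 4714 bases and 0 genes between them. Ranks 1 and 20 on chromosome 5, both on the minus strand, lay 258951 bases apart with 5 genes between.

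The share of all counts that fell in the members was highest in SD and lowest in SHAM. It averaged 19.7% ± 0.94 (standard deviation, n = 6) in SD, with a range from 18.2% to 20.8%. In SHAM it averaged 15.9% ± 1.7 (n = 7), with a range from 12.6% to 17.9%, in RYGB 16.7% ± 0.72 (n = 9), from 15.7% to 17.8%, and in RYGB-FMRR 18.3% ± 0.54 (n = 7), from 17.4% to 19.0%. Every SHAM and RYGB rat lay below every SD rat, and the range of RYGB-FMRR overlapped those of all other groups. That SD stood highest follows from how the members were chosen. The lowest value, 12.6%, was that of SHAM rat 333, and without it SHAM differed from SD by -3.24 percentage points rather than -3.79.

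Because that order is partly set by the choice of members, each rat was also ranked by itself. The share of counts in a library's own 100 most abundant genes was 21.1% ± 0.88 in SD, 18.3% ± 0.92 for SHAM, 19.0% ± 0.69 for RYGB and 20.9% ± 0.61 for RYGB-FMRR. RYGB-FMRR exceeded SHAM by 2.58 percentage points (exact permutation test, two-sided, p = 0.000583, adjusted p = 0.0016 over 6 pairs of groups) and RYGB by 1.94 points (exact permutation p = 0.00035, adjusted p = 0.0016). SHAM differed from SD by -2.76 points (exact permutation p = 0.00117, adjusted p = 0.00175) and RYGB by -2.12 points (adjusted p = 0.0016 in the same exact test). The difference of 0.64 points between RYGB and SHAM did not pass the test (exact permutation p = 0.136, adjusted p = 0.163), and neither did that of -0.18 points between RYGB-FMRR and SD (exact permutation p = 0.662). The share in a library's own 100 most abundant genes was therefore higher in RYGB-FMRR than in either of the other ZDSD groups. This measure does not use the SD ranking, but it is not independent of the members. They filled 85 to 92 of the own 100 places in SD rats and 71 to 79 in RYGB-FMRR rats. Between RYGB and RYGB-FMRR, the members of ranks 1, 10 and 20 alone differed by 1.57 points in sum. Without rat 333 the difference between RYGB-FMRR and SHAM was 2.32 points (adjusted p = 0.00233 in the exact permutation test).

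**Figure D2:**
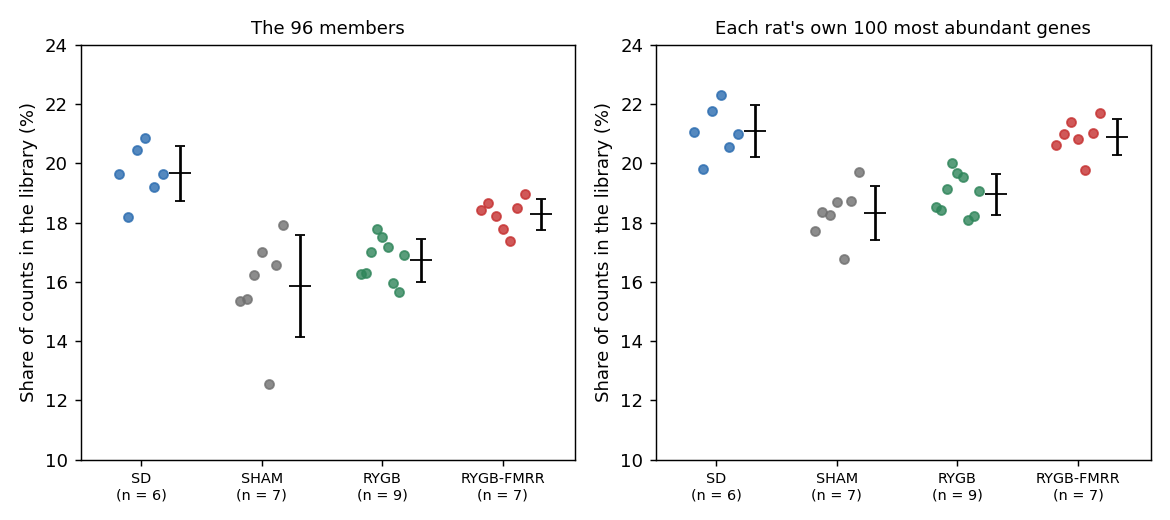
Share of each library's counts (vertical axis, %, starting at 10) in the 96 members (left) and in that library's own 100 most abundant genes (right), 1 point per rat with the mean and standard deviation beside it. On the left SD lies between 18.2% and 20.8% and SHAM between 12.6% and 17.9%, and on the right RYGB-FMRR lies between 19.8% and 21.7%, above every SHAM rat and overlapping SD and RYGB.

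A few members carried much of these movements. Between SD and SHAM, the mean share was lower in 68 members, which summed to -4.70 percentage points, and higher in 28, which summed to 0.91 points. The members of ranks 1, 2 and 4 accounted for -1.24 points. Without SHAM rat 333 the mean share was lower in 64 members and higher in 32, which summed to -4.08 and 0.85 points. Between RYGB and RYGB-FMRR, where the share in the members differed by 1.54 points, the differences of ranks 1, 10 and 20 alone summed to 1.57 points, more than the whole. The same 3 members made up 1.86 of the 2.40 points by which RYGB-FMRR exceeded SHAM. Between SHAM and RYGB the difference was 0.86 points, with the largest positive differences in ranks 10, 3 and 8.

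The order of the most abundant genes also differed between groups. Of the 96 members, 74 stood among the 100 most abundant genes by group mean of SHAM, 80 of RYGB and 75 of RYGB-FMRR, and their places there were taken by genes ranked lower in SD. Without rat 333 the number for SHAM was 78. The lowest-placed member was rank 91 in SHAM, at place 429, and in RYGB, at place 362, and rank 78 in RYGB-FMRR, at place 443. The first place was held by rank 1 in SD and RYGB-FMRR and by rank 3 in RYGB. In RYGB-FMRR the second place went to rank 10 and the sixth to rank 20.

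Among the members, the spread between rats was widest in SHAM. The coefficient of variation of the median member was 11.2% in SD, 18.2% for SHAM, 12.3% for RYGB and 11.5% for RYGB-FMRR. In SHAM, 84 of the 96 members varied more than in SD, and 10 had a coefficient over 50%, those of ranks 2, 7, 9, 14, 29, 53, 78, 86, 95 and 98. Without SHAM rat 333 the median coefficient in SHAM was 13.1%, 68 members varied more than in SD, and 6 members were over 50%, since ranks 7, 29, 95 and 98 no longer were. The 10 members, picked out for that spread, were low in the same SHAM rats. Rat 333 held the lowest value in all 10 and rat 315 the next lowest in all 10. Over all 96 members, rat 333 was the lowest SHAM rat in 63, and its low values widen the spread that picked the 10. Summed, the 10 took 0.277% of counts in rat 333, 0.622% in rat 315 and 3.20% in rat 340, against 2.30% to 3.49% over the SD rats. In RYGB-FMRR, rat 323 held the lowest value of all 10, at 0.720% of counts in sum against 1.32% to 2.16% in the other 6 rats. Over all 96 members, rat 323 was the lowest RYGB-FMRR rat in 27, and rat 324 likewise in 27. The member of rank 14 (chr5:38439678-38460856) had the largest coefficient in SHAM. It ranged from 104 to 2737 CPM (median 982) in SHAM and from 2132 to 5148 CPM (median 3147) in SD. Rats 333 and 315 also had the smallest totals of the 7 SHAM libraries kept, 14502127 and 16195181, although rat 340 was close at 16685661 and rat 323 had 21211123. In the left-out SHAM libraries, which were far shallower, the 10 took 1.92% and 1.58% of counts. The part of depth in this pattern was not tested. In SD only rank 20 varied by more than 50%. At the other end, rank 35 (chr7:11568907-11574177) varied by 2.75% in SD, 6.37% for SHAM, 5.46% for RYGB and 8.86% for RYGB-FMRR.

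**Figure D3:**
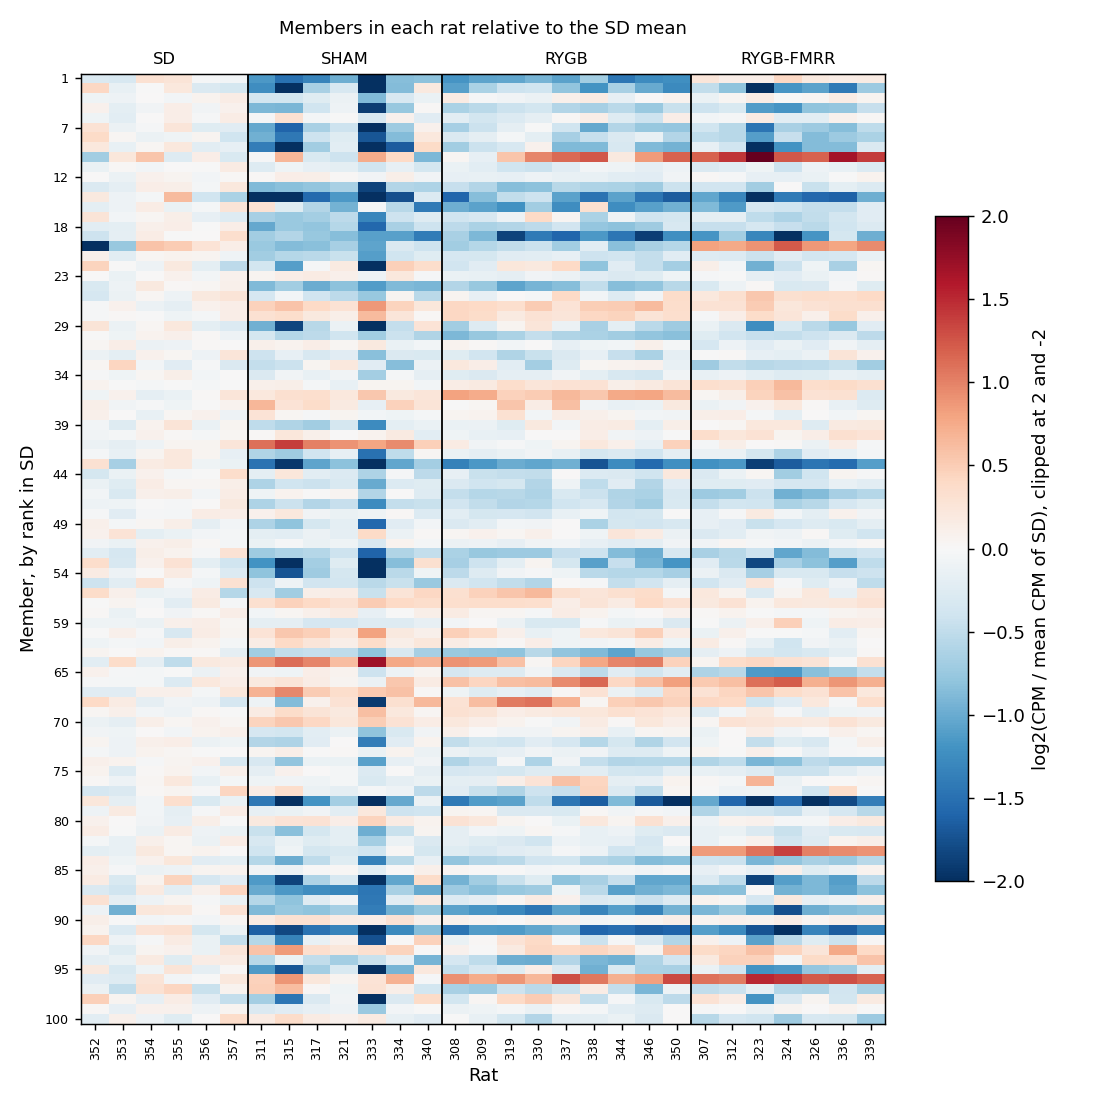
log2 of each member's CPM over its SD mean, with the 96 members in rows by rank and the 29 rats in columns by group (colour scale clipped at 2 and -2). Blue rows running through all 3 ZDSD groups are members such as ranks 43 and 91. The dark blue cells of SHAM rats 315 and 333 and RYGB-FMRR rat 323 are members that were low in these rats. Ranks 1 and 20 turn from blue in SHAM and RYGB to red or pale in RYGB-FMRR.

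In SHAM compared with SD, most of the most abundant transcripts were lower, and a small set was higher. The log2 fold change was below 0 in 77 members and above 0 in 19, with a median of -0.37, against 0.02 over all genes tested. Scaling by library totals alone gave 68 below and 28 above. The TMM scaling factors averaged 0.961 in SD, 1.05 in SHAM, 1.02 in RYGB and 0.963 for RYGB-FMRR, so they were higher where the share in the members was lower. Overlap between groups was judged on CPM, without TMM factors. On library totals alone the median log2 fold change of all genes tested was 0.14, against 0.02 with TMM. The counts of genes without overlap include this shift. The SHAM and SD rats did not overlap in 15 members that were lower and 5 that were higher, beside 2.4% lower and 8.45% higher among all genes tested. Together these made 20.8% of members, beside 13.2% of ranks 101 to 500 (34 lower, 19 higher). Without rat 333 the fold change was below 0 in 76 members and above 0 in 20, and 15 were lower and 6 higher without overlap, beside 2.56% and 9.03% of genes tested. The choice of members from the top of the SD ranking fixes part of this direction.

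Among those lower, rank 91 (chr5:161540977-161553468) had 957 ± 183 CPM in SD, 344 ± 111 for SHAM, 385 ± 75.5 for RYGB and 346 ± 72.1 for RYGB-FMRR. Rank 43 (chr9:3191457-3207088) had 1562 ± 345 CPM in SD, 651 ± 269 for SHAM, 665 ± 112 for RYGB and 590.3 ± 115 for RYGB-FMRR. The SD rats lay above every rat of the 3 ZDSD groups in both of these members. Rank 1 had a log2 fold change of -1.304 in SHAM, rank 87 (chr9:94910377-94990037) of -1.21 and rank 19 (chr3:121249708-121266292) of -1.03. The 5 members that were higher in SHAM without overlap were ranks 63 (chr4:219537467-219662816, log2 fold change 0.88), 41 (chr15:50081535-50102406, 0.84), 27 (chr13:87621449-87641967, 0.36), 57 (chr15:58977919-59000926, 0.28) and 70 (chr20:31629576-31668604, 0.24).

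The other ZDSD groups stood as follows against the same SD rats. In RYGB the median log2 fold change of the members was -0.29, and 16 members were lower and 7 higher without overlap, beside 4.23% and 6.77% of all genes tested. In RYGB-FMRR the median was -0.15, and 21 members were lower and 8 higher without overlap, beside 6.59% and 5.19%. Rank 78 (chr6:104917830-104940633) was at 1055 ± 187 CPM in SD, 466 ± 296 for SHAM, 445 ± 146 for RYGB and 339 ± 111 for RYGB-FMRR. The log2 fold change in RYGB-FMRR was -1.47 for rank 14 and -1.06 for rank 2. On the higher side, rank 10 was at 1.52 in RYGB-FMRR, rank 96 1.25, rank 83 1.002, rank 20 0.89 and rank 66 0.83. In RYGB those highest without overlap were rank 96 at 0.86, rank 66 at 0.62, rank 36 at 0.56, rank 27 at 0.35 and rank 28 (chr14:114188059-114356233) at 0.24. The 3 comparisons share their SD rats, so their values are not independent of each other.

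The comparisons among the 3 ZDSD groups do not use the levels that chose the members, apart from the shared estimate of spread, and were tested with edgeR's quasi-likelihood test across 14776 genes. A gene was called changed at a Benjamini-Hochberg adjusted p under 0.05 and a fold change of at least 1.3 in either direction. All 96 members were tested.

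In RYGB compared with SHAM, surgery alone, 10 members changed (10.4%), beside 5.35% of genes tested. Of these, 7 rose, beside 1.48% of genes tested, and 3 fell, beside 3.86%. The largest change was the fall of rank 41 (chr15:50081535-50102406). Its level ranged from 2216 to 4168 CPM (median 3092) in SHAM, from 1436 to 2207 CPM (median 1661) in RYGB and from 1416 to 1884 CPM (median 1577) in SD. Each RYGB rat thus lay below each SHAM rat and the RYGB values overlapped those of SD. The log2 fold change was -0.85 ± 0.10 (standard error, edgeR adjusted p = 3.49e-06). Ranks 97 (chr6:135492944-135518919) and 67 (chr3:167484246-167489974) fell by 0.57 and 0.54 on the log2 scale, and in both the groups overlapped.

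The members called higher in RYGB than in SHAM were ranks 96, 66, 39, 17, 56, 26 and 36. Rank 96 (chr12:40729052-40740668) ranged from 890.0 to 1667 CPM (median 1093) in SHAM and from 1424 to 2260.1 CPM (median 1659) in RYGB. Its log2 fold change was 0.58 ± 0.13 (edgeR adjusted p = 0.00389), although the groups overlapped. Rank 66 (chr17:82205509-82425565), with 67 exons, went from 1346 ± 194 CPM to 1927 ± 342 (log2 fold change 0.55), and rank 36 (chr9:80960143-81166699), with 35 exons, from 2079 ± 186 to 2659 ± 236 (0.39). In these 3 members RYGB stood further from SD than SHAM did. Rank 39 (chr5:124130328-124189158) went from 1138 ± 270.0 CPM in SHAM to 1595 ± 185 in RYGB, close to its SD mean of 1603, and rank 26 (chr1:271223510-271248144) from 1758 ± 352 to 2287 ± 368, beside an SD mean of 2219. Rank 17 (chr13:76294459-76303626) went from 2086 ± 442 CPM to 2845 ± 640.3 and rank 56 (chr3:123945415-124022076) from 1259.6 ± 339 to 1654 ± 220.5. Among ranks 101 to 500, 25 of 400 genes changed (6.25%). Without SHAM rat 333 the count of members was 9, with 5 higher and 4 lower, and the calls of ranks 17, 26 and 56 were lost (log2 fold changes 0.38, 0.34 and 0.35).

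In RYGB-FMRR compared with SHAM, 26 members changed (27.1%), beside 12.1% of genes tested. Of these, 20 rose, beside 4.43% of genes tested, and 6 fell, beside 7.7%. Among ranks 101 to 500, 74 of 400 genes changed (18.5%). Scaling by library totals alone left 12 that rose. Without rat 333, 21 members changed, of which 15 rose. The 6 that fell were ranks 41, 63, 65, 97, 46 and 100. Rank 41 had a log2 fold change of -0.83 (edgeR adjusted p = 1.74e-06) and fell to 1616 ± 99.4 CPM, against 1597 ± 174 in SD. Rank 63 ranged from 1864 to 3929.8 CPM (median 2237) in SHAM and from 1209 to 1611 CPM (median 1489.8) in RYGB-FMRR, without overlap, with a log2 fold change of -0.63 ± 0.14. Rank 65 (chr2:72891713-73037614) and rank 100 (chr5:79083351-79123669) also fell without overlap, by 0.60 and 0.45, and rank 46 (chr5:139278242-139295142) by 0.48 with overlap.

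The 4 largest rises in the same comparison were those of rank 20, at a log2 fold change of 1.69 ± 0.26, rank 10, at 1.52 ± 0.26, rank 1, at 1.501 ± 0.16, and rank 83, at 1.38 ± 0.09. In all 4 every RYGB-FMRR rat lay above every SHAM rat. Ranks 96 (0.97), 94 (0.93), 25 (0.84), 26 (0.80), 35 (0.51) and 59 (0.46) also rose without overlap. Rank 35, the member that varied least in SD, had 1746 ± 48 CPM in SD, 1762 ± 112 for SHAM, 2049 ± 112 for RYGB and 2313 ± 205 for RYGB-FMRR. Ranks 3 and 71, the pair with no gene between them, rose by 0.49 and 0.43, both with overlap. SHAM rat 333 was the lowest SHAM rat in both, at 4488 and 632 CPM. Whether these calls hold without that rat or on library totals is not given. The fold changes of the pair in RYGB compared with SHAM were 0.37 and 0.33, which were not called.

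**Figure D4:**
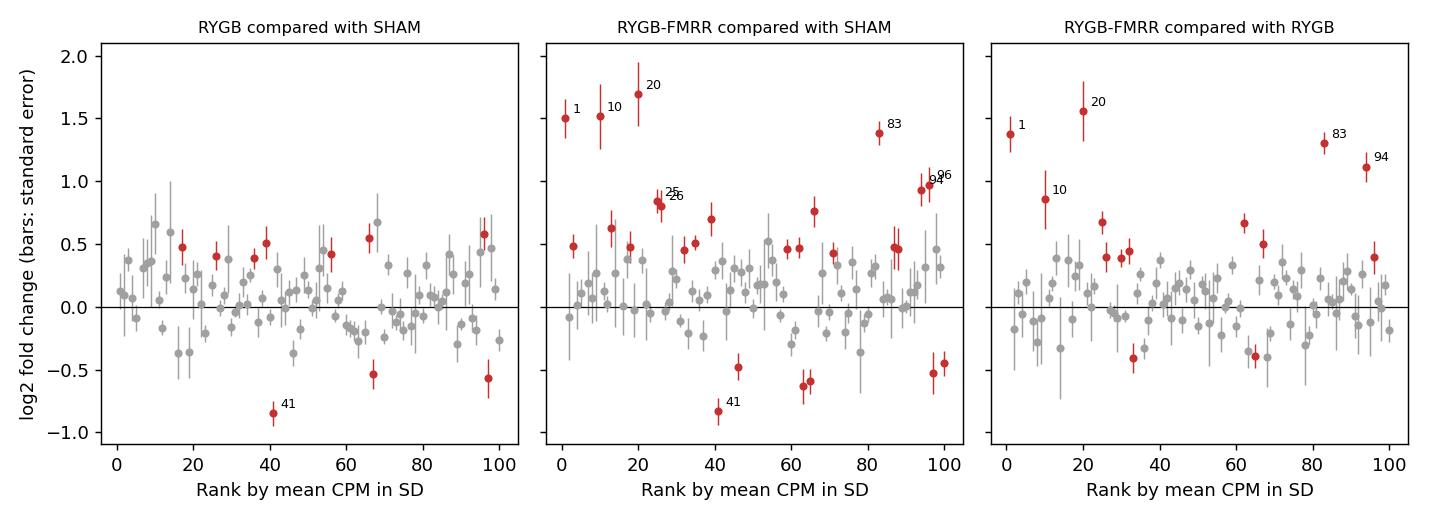
log2 fold change (points) with its standard error (bars) of each member against its rank in SD, in the 3 tested comparisons. Red points are members called changed, 10 on the left, 26 in the middle and 14 on the right, grey points are those not called, and numbers give the rank of called members beyond 0.8 in size.

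With the drugs added to surgery, in RYGB-FMRR compared with RYGB, 14 members changed (14.6%), beside 4.56% of genes tested. Of these, 12 rose, beside 2.74% of genes tested, and 2 fell, beside 1.82%. The median log2 fold change of the members was 0.07, against -0.02 over all genes tested. With library totals as the only scaling these medians were -0.01 and -0.10, so the side of 0 on which the median member fell depends on the scaling, while its distance from the median of all genes was 0.09 under each. In the next 400 genes of the SD ranking, 46 changed (11.5%), of which 42 rose. Without RYGB-FMRR rat 323, 11 members changed, and without rat 324, 14.

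The largest rise was that of ENSRNOG00000009741, rank 20 (chr5:138259232-138316870, minus strand). Its level ranged from 1533 to 2383 CPM (median 1846) in RYGB and from 4651 to 6455 CPM (median 5032) in RYGB-FMRR. No rat overlapped between these groups, and the log2 fold change was 1.56 ± 0.24 (edgeR adjusted p = 4.04e-05). In SD it ranged from 519 to 4078 CPM (median 3175), wider than in any ZDSD group, with SD rats 352 and 353 at 518.6 and 1629 CPM and the other 4 between 3023 and 4078. Its neighbour ENSRNOG00000030154, rank 1, ranged from 3971 to 6704 CPM (median 5148) in RYGB, from 2703 to 6123 CPM (median 4912) in SHAM and from 11839 to 14474 CPM (median 12168) in RYGB-FMRR. The log2 fold change between RYGB-FMRR and RYGB was 1.38 ± 0.14 (edgeR adjusted p = 4.91e-08). In both neighbours the values of SHAM and RYGB overlapped and all RYGB-FMRR rats stood above them. The annotation has no overlap between the 2 genes, and whether they share a cause of change was not tested.

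Rank 83 (chr10:103537778-103562620) had the smallest standard error among the members with a rise over 0.8 on the log2 scale. It ranged from 908 to 1193 CPM (median 1052) in SD, from 785 to 1052 CPM (median 815) for SHAM, from 800.2 to 1020.2 CPM (median 884) for RYGB and from 1867 to 2673 CPM (median 1995) for RYGB-FMRR. All 7 RYGB-FMRR rats lay above all 22 others. Its log2 fold change against RYGB was 1.303 ± 0.09 (edgeR adjusted p = 5.46e-12). Rank 94 (chr1:245521322-245562969) ranged from 487 to 857 CPM (median 661) in SHAM, from 469 to 741 CPM (median 611) in RYGB and from 902 to 1384 CPM (median 1211) in RYGB-FMRR, with a log2 fold change of 1.12 ± 0.12 and an SD mean of 932 ± 124 CPM between them. Ranks 25 (chr3:168266579-168329649) and 62 (chr4:185912083-186013125) rose by 0.67 ± 0.09 and 0.67 ± 0.08 without overlap, to 1978 ± 195 and 1059 ± 99.8 CPM, both below their SD means of 2226 and 1215.

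Rank 10 (chr3:177278783-177284731) was highest in RYGB-FMRR. It ranged from 2587 to 6207 CPM (median 4059) in SD, from 2263 to 7057 CPM (median 4119) for SHAM, from 3734 to 9953 CPM (median 7559) for RYGB and from 9482 to 19590.0 CPM (median 11085) for RYGB-FMRR, where it reached 1.20% of all counts. RYGB overlapped SHAM, and that comparison was not called, with a log2 fold change of 0.66 ± 0.24 (edgeR adjusted p = 0.0672). RYGB-FMRR lay above all SHAM rats and overlapped RYGB, with a log2 fold change of 0.85 ± 0.24 against RYGB (edgeR adjusted p = 0.0177). The highest value belonged to RYGB-FMRR rat 323, and without it this call was lost (log2 fold change 0.69, edgeR adjusted p = 0.0576).

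The smaller rises were those of ranks 67 (0.50), 32 (chr1:196227765-196266992, 0.45), 26 (0.40), 96 (0.39) and 30 (chr1:232979054-232981410, 0.39), all with overlap. With library totals as the only scaling, the calls of ranks 26, 30, 32 and 96 against RYGB were lost. The rises of ranks 26 and 96 were called in all 3 tested comparisons, from 1758 ± 352 CPM in SHAM through 2287 in RYGB to 2836 ± 199 in RYGB-FMRR for rank 26, and from 1191 through 1744 to 2157 for rank 96. In the comparison with RYGB both calls are near the threshold (edgeR adjusted p = 0.026 and 0.0445), and without rat 323 both were lost (edgeR adjusted p = 0.0563 and 0.0947). Without rat 324 that of rank 96 was lost too (edgeR adjusted p = 0.0816). Rank 67 was lower in RYGB than in SHAM and higher in RYGB-FMRR than in RYGB. It had 1169 ± 152 CPM in SD, 1707 ± 337 for SHAM, 1152 ± 210.2 for RYGB and 1535 ± 148 for RYGB-FMRR.

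The 2 members called lower in RYGB-FMRR than in RYGB were ENSRNOG00000017206, rank 33 (chr9:79920613-79937408), and ENSRNOG00000043094, rank 65. Rank 33 ranged from 1115 to 2061 CPM (median 1840.1) in RYGB and from 1092 to 1307 CPM (median 1238) in RYGB-FMRR, with a log2 fold change of -0.41 ± 0.12 (edgeR adjusted p = 0.0252). Rank 65 ranged from 818 to 1123 CPM (median 983) in RYGB and from 533 to 845 CPM (median 732) in RYGB-FMRR, with a log2 fold change of -0.39 ± 0.10 (edgeR adjusted p = 0.00802). The groups overlapped in both. Without rat 323 only rank 33 kept its call, since rank 65 dropped to a log2 fold change of -0.34, below the fold required. Without rat 324 it dropped to -0.33.

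**Figure D5:**
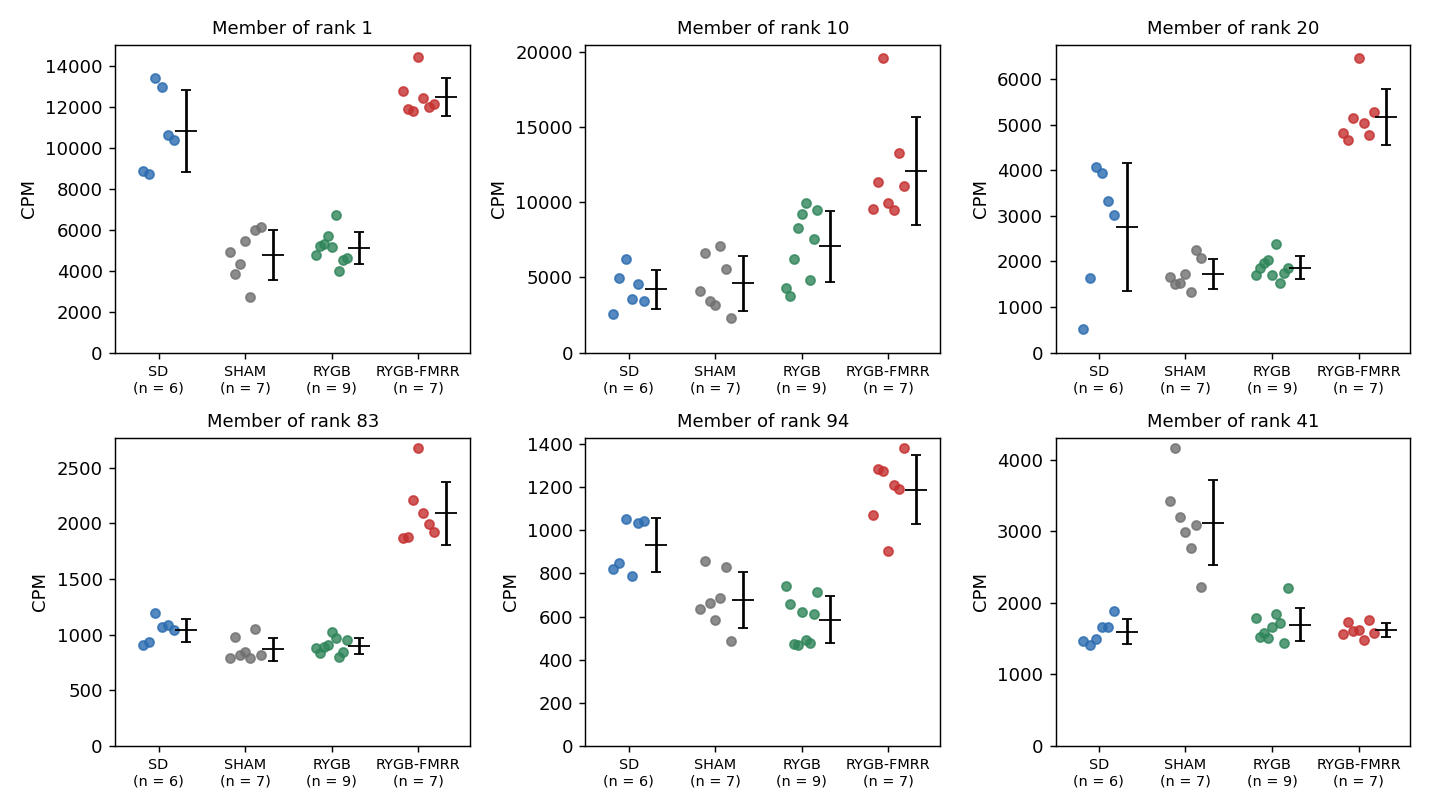
CPM in each rat (points, vertical axes starting at 0) of the members of ranks 1, 10, 20, 83, 94 and 41, with the mean and standard deviation of each group beside them. RYGB-FMRR lies above SHAM and RYGB without overlap in ranks 1, 20, 83 and 94 and overlaps RYGB in rank 10, while SHAM lies above the other 3 groups in rank 41, from 2216 to 4168 CPM.

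Several of the most abundant members were not called in any of the 3 tested comparisons. Rank 5 had 6770.1 ± 961 CPM for SHAM, 6219 ± 910.4 for RYGB and 6730.4 ± 659.6 for RYGB-FMRR, beside 6864 ± 626 in SD. Rank 11 (chr17:11856946-11872100) had 3542 ± 273, 3614 ± 323 and 3573 ± 284 CPM in the same groups, beside 4143 ± 287 in SD. Ranks 2, 4, 7, 8 and 9 had lower means in all 3 ZDSD groups than in SD. Rank 2 had means of 4567 ± 3051, 4832 ± 1082 and 4035 ± 1415 CPM, and rank 4 of 4979 ± 1946, 5154 ± 417 and 4664 ± 1084 CPM. Rank 7 (chr6:8217523-8251124) had 2827 ± 1427, 3451 ± 771 and 3008 ± 629 CPM, beside 4896 ± 796 in SD. Rank 8 (chr1:196127949-196141294) had 3008 ± 1389, 3793 ± 532 and 2927 ± 437 CPM, beside 4679.9 ± 838 in SD. For rank 9 the means were 2399 ± 1918, 3061 ± 818 and 2702 ± 1054 CPM, beside 4465 ± 609.9 in SD. In these 5 members the standard deviation was largest in SHAM. The log2 fold changes of RYGB-FMRR compared with RYGB in ranks 2, 4, 7, 8 and 9 had standard errors between 0.18 and 0.36, against 0.07 to 0.24 in the members called there, so that smaller changes in them were not detectable. Rank 3 was called in RYGB-FMRR compared with SHAM, at 0.49 ± 0.10 (edgeR adjusted p = 0.000496), from 6609 ± 1065 CPM to 8567 ± 557, beside 8296 ± 571 in SD. The groups overlapped, and SHAM rat 333 was the lowest, at 4488 CPM.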

How the data were processed

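Stranded total RNA libraries of rat renal cortex, depleted of ribosomal RNA, were sequenced in pairs. According to the study's methods the authors trimmed reads, aligned them with STAR to rn5 and counted them with featureCounts (version 1.6.4 in the submitters' processing notes). The values deposited by the authors are raw counts per gene, without normalization or filtering. The methods do not state how reads that map to several places were handled. If they were not counted, genes with near-identical copies are lowered. The 37 mitochondrial genes had 0 counts in every library, so they take no share of the totals.

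Groups came from the sample labels: 6 SD, 9 SHAM, 9 RYGB and 7 RYGB-FMRR rats, less 2 SHAM libraries with totals under 1000000. Rat 320 of RYGB-FMRR, present among the labels, was not used here. CPM is 1000000 times a count over the library total. The members, the gene lists and the tests were chosen with earlier results of these data known. The 4 genes left out of the top 100 are not reported here.

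Counts were filtered (filterByExpr, minimum count 10), normalized by TMM and tested in 1 quasi-likelihood model of the 4 groups in edgeR 4.0.16 (R 4.3.3). Fold changes are on this TMM scale, and standard errors are the fold change over the square root of the F statistic. Whether groups overlap was judged on CPM, without TMM factors. On simulated counts of RYGB-FMRR compared with RYGB (14709 genes), 91 of 100 genes changed 2-fold and 73 of 100 changed 1.5-fold were recovered, with 4 other genes called. In simulated RYGB compared with SHAM, where none had been changed, 0 were called. The simulation drew each gene independently, without shifts shared by many genes of a rat, so it does not cover errors from such shifts. Shares in each rat's own 100 genes were compared by exact permutation (scipy 1.17.1).

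Alternatives were DESeq2 1.42.0, its size factors in edgeR, library totals, no filter, models of the compared groups only, all 31 libraries, adjusted p alone, and other rankings. Leaving out rats 323, 324 and 333 was decided after the data had been seen.

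Members described singly were the 10 highest in SD, up to 12 called in each direction per tested comparison, and the 5 largest differences from SD in each direction without overlap. Since 0 of 26404 identifiers could be matched to a symbol, at most 2 identifiers that rose and 2 that fell are printed, and the gene lists and tissue markers that had been listed were not used. No sequences were matched.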

Additional observations from a re-analysis of the deposited data

Results flagged for a closer look

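Within each group, the highest and lowest rat were checked for a gap to the next rat that was wide relative to the whole range (Dixon's criterion). The check covered 46 measures in 184 groups, of which chance alone marks about 1 in 20, or 9.2, and it marked 14.

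Of these, 4 were the highest values of RYGB-FMRR rat 324. Its CPM was 14474 for rank 1, with the next rat at 12808, 6455 for rank 20 (next 5280), 1749 for rank 59 (next 1384) and 2673 for rank 83 (next 2206). RYGB-FMRR rat 323 was highest in 3 members, at 19590.0 CPM for rank 10 (next 13288), 3038 for rank 27 (next 2680) and 999.6 for rank 87 (next 563.2).

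SHAM rat 333 was marked in 4 members. It was lowest at 4488 CPM for rank 3 (next 6434) and 1009 for rank 32 (next 1356), and highest at 2462 for rank 36 (next 2142) and 3930 for rank 63 (next 2641). The other 3 were SD rat 352, highest at 1838 for rank 35 (next 1744), SD rat 357, lowest at 1073 for rank 62 (next 1223), and RYGB rat 337, highest at 942.7 for rank 87 (next 682.6).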

How the results depend on the processing

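No paired analysis was possible because every rat belongs to a single group and the labels give no numbers common to several groups. For the called members described singly, up to 12 in each direction per tested comparison, values were recomputed in 386 combinations of value and alternative. Of these combinations, 364 kept their direction and side of the thresholds, 22 lost the call and 0 changed direction. Ranks 3 and 71 in RYGB-FMRR compared with SHAM were not among them. Rank 56 in RYGB compared with SHAM and rank 96 in RYGB-FMRR compared with RYGB lost it most often, under 4 settings each. With the adjusted p alone, 17 rather than 10 members were called in RYGB compared with SHAM (11 higher, 6 lower) and 24 rather than 14 in RYGB-FMRR compared with RYGB (19 higher, 5 lower), since this drops the fold required. Models of the compared groups only gave 7 members in RYGB compared with SHAM, of which 4 were higher. With library totals only, 12 rather than 20 members were higher in RYGB-FMRR compared with SHAM, and 4 rather than 2 were lower in RYGB-FMRR compared with RYGB. That scaling put the median of all genes at 0.14 (log2) in SHAM against SD, at -0.13 in RYGB-FMRR against SHAM and at -0.10 in RYGB-FMRR against RYGB. DESeq2 called 13, 27 and 15 members in the 3 tested comparisons. The share of all genes called is given only for the main fit. Counts of members called under alternatives or without a rat therefore have no such share beside them.

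The median log2 fold change of RYGB compared with SD was -0.20 with library totals and -0.17 for genes ranked over all rats. Ranking over all rats kept 81 of the 96 members, gave a share that differed from SD by -1.84 percentage points in RYGB and by -0.28 points in RYGB-FMRR, and gave a median of -0.034 in the latter. Without rats 333, 323 or 324 in turn, the members called were 9 with surgery alone against SHAM, 21 to 27 with surgery and drugs against SHAM, and 11 to 14 with drugs added to surgery. The share in the members was then -3.24 points from SD in SHAM and -1.38 to -1.30 in RYGB-FMRR, with medians of -0.33 and -0.14 to -0.12. The share in each library's own 100 genes differed by -2.50 points for SHAM against SD, 0.38 for RYGB against SHAM, 2.32 to 2.60 for RYGB-FMRR against SHAM, 1.86 to 1.96 for RYGB-FMRR against RYGB and -0.27 to -0.17 for RYGB-FMRR against SD. At these depths every member has at least 1337 counts in each library, so the spread between rats rather than counting limits the precision.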

Other observations

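The 2 SHAM libraries left out for depth gave shares for the members as a whole that lay within the range of the other SHAM rats. In rat 343, with 121511 counts, the members took 17.1% of counts and the rank 1 member 0.641%, and in rat 348, with 101534 counts, they took 16.5% and 0.577%. The kept SHAM rats had 0.270% to 0.612% in the rank 1 member. The 100 most abundant genes of each of these libraries took 18.9% and 18.6%, against 16.8% to 19.7% in the 7 SHAM rats that were kept.

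Among individual rats, the number of members found in a rat's own 100 most abundant genes ranged from 85 to 92 in SD, 61 to 85 for SHAM, 72 to 80 for RYGB and 71 to 79 for RYGB-FMRR. The 61 was that of SHAM rat 333. The number of members below every SD rat ranged 33 to 63 for SHAM, 34 to 59 for RYGB and 34 to 52 for RYGB-FMRR, and the number above every SD rat 13 to 27, 11 to 21 and 15 to 23. The choice of members by their SD levels fixes part of these numbers, and no share over all genes was computed beside them.

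Ranks 8 and 32, which lie 86470 bases apart on opposite strands of chromosome 1, had log2 fold changes of -0.28 and 0.45 in RYGB-FMRR compared with RYGB, of which only that of rank 32 was called. Ranks 48 and 81 on chromosome 16 had 0.30 and -0.06, and neither was called. Over the 96 members, the log2 fold change and the log2 exonic length had a Pearson correlation of 0.22 for SHAM, 0.32 for RYGB and 0.20 for RYGB-FMRR, each against SD, of 0.14 for RYGB and -0.0005 for RYGB-FMRR, both against SHAM, and of -0.11 for RYGB-FMRR against RYGB, given as a description, since the points share the same libraries.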
